A study of Mus musculus with 36 samples.

Results

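The genes described here are 9 enzymes of the citric acid cycle and its malate dehydrogenase partners: Cs, Idh2, Idh3a, Idh3b, Idh3g, Ogdh, Sucla2, Mdh1 and Mdh2. They were taken as a fixed list of symbols, matched by NCBI Gene ID to the deposited tables, and all 9 were found among the 18762 genes measured and among the 11790 genes that passed a filter on low values. Transcripts were measured by RNA sequencing in hearts of 8-week-old C57BL/6 mice, housed with 12 h of light and 12 h of darkness and given normal chow. Times are zeitgeber times (ZT), in hours from lights on. The labels call the genotypes WT and KO, and the alleles are matched to them here by their wording. The WT group carried Reverb fl/fl, a floxed allele of the clock repressor Rev-erb, and was sampled at ZT2, ZT6, ZT10, ZT14, ZT18 and ZT22. The KO group carried Reverb fl/fl together with MHC+, and its libraries could be used at the 5 times from ZT2 to ZT18. MHC in such strains usually denotes a myosin heavy chain promoter driving Cre recombinase in heart muscle cells, although the labels do not spell it out. No group carried MHC+ alone, so an effect of the transgene itself cannot be told apart from an effect of Rev-erb loss. Each group had 3 libraries, which gave 18 WT and 15 KO libraries, and the labels do not state whether each came from a different animal, so p-values measure the spread between libraries.

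The citric acid cycle runs in the mitochondrial matrix, where it oxidises the acetyl groups that fatty acids, glucose and ketone bodies deliver and passes the electrons to the respiratory chain. The heart depends on it more than most tissues, since contraction consumes ATP without pause and fatty acids are its main fuel. Citrate synthase opens the cycle, the isocitrate and oxoglutarate dehydrogenases carry out its oxidative decarboxylations, succinyl-CoA ligase makes a nucleotide triphosphate directly, and malate dehydrogenase regenerates oxaloacetate.

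Levels are given in FPKM, fragments per kilobase of transcript and per 1e6 mapped fragments, a unit inferred from the values. Depth, worked out from the spacing of the lowest FPKM values, was 15.03 to 17.44 M reads (M, 1e6) in KO libraries and 13.67 to 15.72 M in WT libraries, so the KO libraries were the deeper on average. The clock repressor Nr1d1 was higher in the KO libraries, at 192 to 317 FPKM, than in the WT libraries, at 9.29 to 87.7 FPKM. That is not a plain loss of its transcript. Nr1d2, the other Rev-erb gene, was at 10.69 to 42.35 FPKM in the WT libraries and 22.35 to 35.39 FPKM in the KO libraries. The labels do not say which Rev-erb gene was floxed, nor which part was removed, so the groups are called WT and KO-labelled. Of the 7 heart muscle cell markers 3 rose and 4 fell, and their summed level was 47982 to 53464 FPKM in WT and 48835 to 51718 FPKM in KO-labelled libraries. Of 6 fibroblast markers 4 rose and 0 fell, with summed levels of 378 to 452 FPKM in WT and 366 to 516 FPKM in KO-labelled libraries. Of 6 endothelial markers 1 rose and 2 fell (summed levels 183 to 258 and 191 to 261 FPKM), and of 5 macrophage markers 2 rose and 0 fell (26.9 to 34.0 and 27.6 to 38.5 FPKM). Of 5 smooth muscle and pericyte markers only Acta2 rose and 0 fell, with sums of 221 to 389 and 307 to 551 FPKM, and of 4 red blood cell markers 0 rose and 0 fell, with sums of 2271 to 4676 and 2002 to 4634 FPKM. The atrial markers Myl7, Sln and Bmp10 were at or near 0 in both genotypes, each at most 0.91 FPKM, while Nppa, also a fetal heart gene, stood at 286 ± 74.3 FPKM in WT and 2819 ± 730 FPKM in KO-labelled libraries (SD, n = 15 each). The fifth atrial marker, Myl4, was at 2.54 ± 1.08 FPKM in WT and 3.23 ± 0.84 FPKM in KO-labelled libraries and rose (log2 difference 0.29, limma adjusted p = 0.012), as did Nppa. Of the brown fat markers Ucp1 was at most 0.04 FPKM, and Cidea was at 34.5 ± 2.98 and 30.8 ± 1.89 FPKM and fell (log2 difference -0.16, limma adjusted p = 9.6e-06). These marker counts are to be read against all genes tested, of which 33.2% were called higher and 23.4% lower at a limma adjusted p under 0.05. The part of these marker shifts and of depth in the results below was not tested.

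The promoters of the 3 enzymes whose KO-labelled and WT libraries did not overlap at all are shown first, since they are the genes on which the genotype comparison turns. Each runs from 250 bases before to 50 bases after a start site that RefSeq gives for the gene on GRCm38.p6, the assembly behind mm10, and is read 5′ to 3′ on the gene's own strand. Capitals mark GGGCGG (the GC box), CCAAT and CCGGAAG (an ETS-type site), on either strand. Idh2 lies at chr7:80115301-80115600 on the minus strand, Idh3b at chr2:130284402-130284701 on the minus strand and Mdh2 at chr5:135778399-135778698 on the plus strand. The Idh2 window lies inside the RefSeq span of that gene, whose 5′ end is further upstream at 80118608, and it holds the 5′ end in the GENCODE annotation, at 80115392. The Idh3b and Mdh2 windows each hold a GENCODE 5′ end upstream of the start site used, at 130284547 and 135778480. Motif distances below count from the RefSeq start sites.
Idh2: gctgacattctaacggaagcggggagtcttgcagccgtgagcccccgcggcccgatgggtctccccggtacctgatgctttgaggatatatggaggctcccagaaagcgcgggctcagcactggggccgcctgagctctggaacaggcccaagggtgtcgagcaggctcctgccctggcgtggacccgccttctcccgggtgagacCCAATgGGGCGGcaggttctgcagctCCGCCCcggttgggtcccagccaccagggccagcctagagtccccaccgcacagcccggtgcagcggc
Idh3b: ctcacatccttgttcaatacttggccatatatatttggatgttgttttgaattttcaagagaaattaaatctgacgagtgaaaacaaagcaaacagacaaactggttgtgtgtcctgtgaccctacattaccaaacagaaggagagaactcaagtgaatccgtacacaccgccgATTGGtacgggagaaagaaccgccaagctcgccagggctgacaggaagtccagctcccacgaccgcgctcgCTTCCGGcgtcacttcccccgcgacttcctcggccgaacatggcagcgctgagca
Mdh2: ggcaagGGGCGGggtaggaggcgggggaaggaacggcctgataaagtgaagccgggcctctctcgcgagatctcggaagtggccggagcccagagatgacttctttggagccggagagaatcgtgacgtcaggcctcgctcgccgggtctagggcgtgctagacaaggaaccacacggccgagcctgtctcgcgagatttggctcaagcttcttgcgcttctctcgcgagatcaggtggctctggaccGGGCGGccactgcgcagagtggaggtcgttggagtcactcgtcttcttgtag

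The Idh2 window held GGGCGG starting 38 and 18 bases before the start site and CCAAT at 44 bases before it. The Idh3b window had no GGGCGG but held CCGGAAG at 5 bases and CCAAT at 76 bases before the start, both on the opposite strand. The Mdh2 window held GGGCGG at 244 and 2 bases before the start. These motifs were common among all 27025 promoters searched: GGGCGG was in 35.9%, CCAAT in 37.9% and CCGGAAG in 9.12% of them. AGGTCA, the short element that Rev-erb and related nuclear receptors bind, was in 16.0% of all promoters, and neither the Idh2, the Idh3b nor the Mdh2 window held it. Of the 8 enzymes with a promoter entry, AGGTCA was found in Idh3g, starting 14 bases after the start site on the opposite strand, and in Sucla2, 159 bases before it. The longer element TCAAGGTCA, found in 0.407% of all promoters, direct repeats of AGGTCA set 1 base apart (0.0444%) or 2 bases apart (0.0074%), and the E-box CACGTG (7.24%) were in none of the 8 windows. A site of the NRF1 type (4.78%) was found in Sucla2, 17 bases before the start. A match describes letters in a window and is not evidence of binding.

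The cycle enzymes were among the most abundant transcripts of the heart, and their order in WT libraries was Idh2, Mdh2, Mdh1, Ogdh, Cs, Idh3b, Idh3g, Sucla2 and Idh3a. By mean FPKM in WT, Idh2 ranked 50 and Idh3a, the lowest of the 9, ranked 262 among the 11790 genes. Most steps in this order held in every library, and the ranges of Mdh2 and Mdh1, Mdh1 and Ogdh, Cs and Idh3b, Idh3b and Idh3g, and Idh3g and Sucla2 did not overlap in WT. Ogdh and Cs overlapped in range, yet Ogdh was the higher in 18 of 18 WT and 15 of 15 KO-labelled libraries. Sucla2 exceeded Idh3a in 13 of 18 WT and 12 of 15 KO-labelled libraries, so this step did not hold in every library, and it was not tested. The top of the order depended on genotype: Idh2 was above Mdh2 in 15 of 18 WT libraries and in 0 of 15 KO-labelled libraries.

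In KO-labelled hearts the isocitrate dehydrogenase Idh2 fell by 36.1%, the isocitrate dehydrogenase subunit Idh3b fell by 15.8%, citrate synthase fell by 7.58% and the cytosolic malate dehydrogenase Mdh1 fell by 5.73%, while the mitochondrial malate dehydrogenase Mdh2 rose by 16.0%. These figures compare means over the 5 shared times, n = 15 libraries per genotype. Idh3a, Idh3g, Ogdh and Sucla2 did not pass the test. By limma with Benjamini-Hochberg adjustment over all genes, 5 of 9 enzymes were called at an adjusted p under 0.05, 1 higher and 4 lower. Of all genes tested 56.6% were called, 33.2% higher and 23.4% lower, so the share of enzymes called is close to the background with values scaled as deposited. The count depended on scaling: under median-ratio scaling, quantile normalization, removal of length and GC trends, and edgeR on rebuilt counts, 7 of 9 were called, 1 higher and 6 lower, where Ogdh and Sucla2 were added and 56.7 to 57.7% of all genes were called. Of 11642 to 11790 genes tested under those 4 settings, 3300 to 3483 were called lower and 3223 to 3422 higher. With values as deposited 2763 of 11790 were called lower and 3916 higher. The median log2 difference of the 9 was -0.03, beside 0.02 over all genes. Under those 4 settings it was -0.05 to -0.13, beside -0.008 to 0.0006 over all genes. Libraries were bulk hearts, in which fewer cells of a type and less RNA per cell cannot be told apart.

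**Figure D1:**
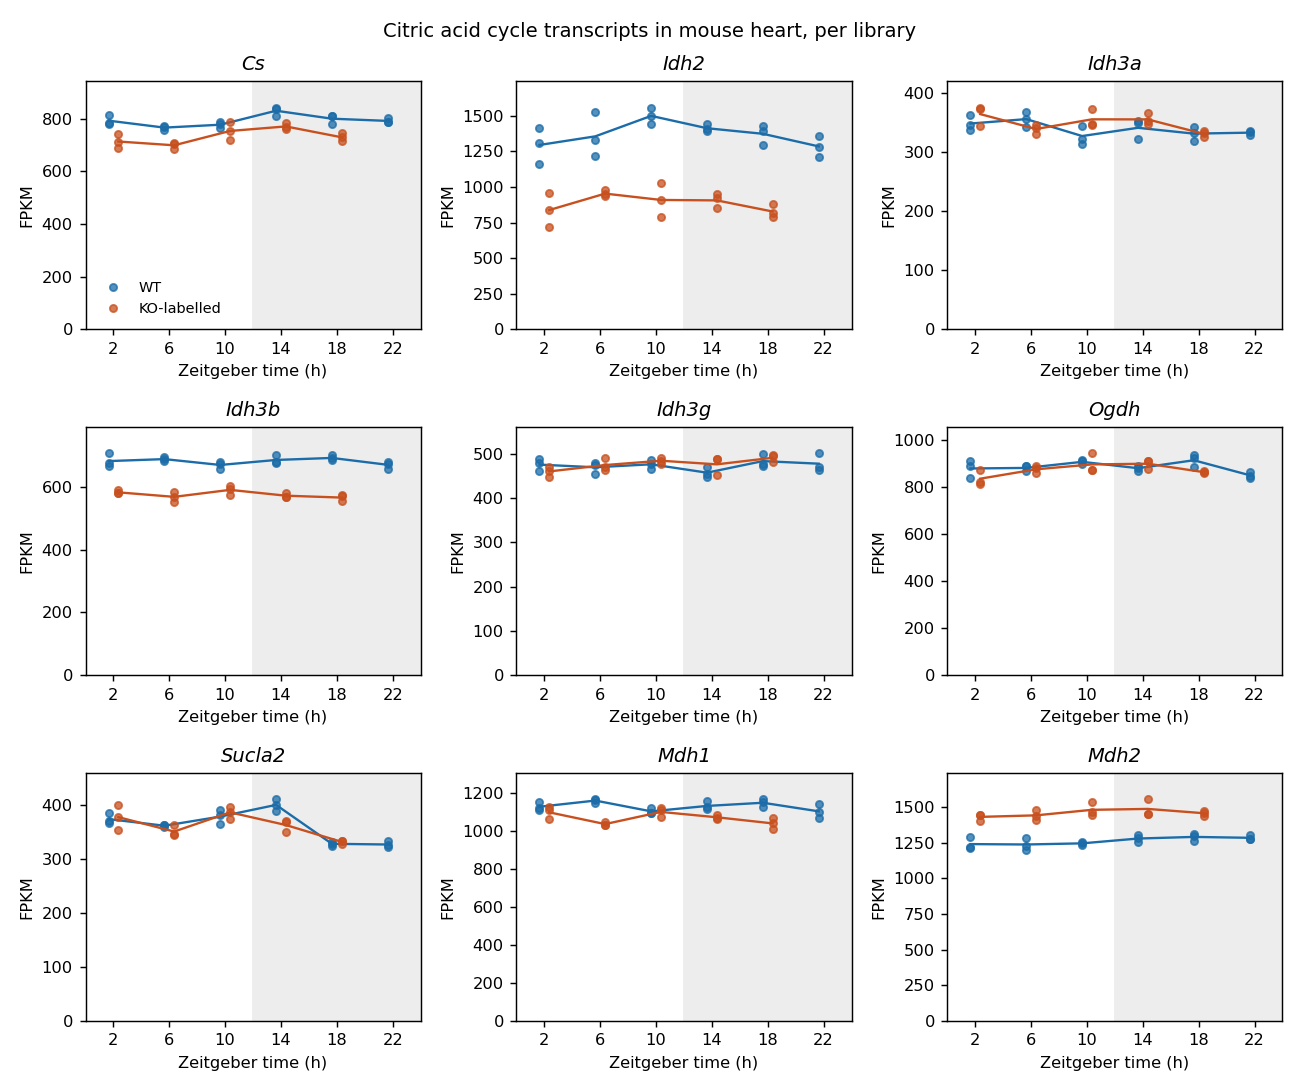
FPKM of each enzyme in every library (points, 3 per group) against zeitgeber time, with lines through the group means; blue is WT, orange is KO-labelled, and grey marks the dark phase. For Idh2 and Idh3b all 15 KO-labelled points lie below all 18 WT points, and for Mdh2 all lie above; each vertical axis starts at 0.

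Citrate synthase (Cs, NCBI Gene 12974, chromosome 10, 128337727 to 128362482 in mm10) joins acetyl-CoA to oxaloacetate and is widely used as a marker of mitochondrial content. In WT libraries Cs read 785, 813 and 780 FPKM at ZT2, 767, 759 and 773 at ZT6, 787, 766 and 779 at ZT10, 812, 837 and 842 at ZT14, 810, 809 and 781 at ZT18, and 786, 786 and 803 at ZT22. Its KO-labelled libraries read 742, 710 and 688 FPKM at ZT2, 704, 685 and 708 at ZT6, 720, 752 and 788 at ZT10, 770, 760 and 782 at ZT14, and 714, 746 and 729 at ZT18. The groups were apart at every time but ZT10, where a KO-labelled library at 788 FPKM stood just above the highest WT library. The mean log2 difference was -0.11 ± 0.01 (SE, n = 15 per genotype, limma adjusted p = 7.7e-08). By time the log2 difference was -0.15 at ZT2, -0.13 at ZT6, -0.05 at ZT10, -0.11 at ZT14 and -0.13 at ZT18, each ± 0.03 SE, and it passed the test at each time other than ZT10 (adjusted p = 0.32 there).

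Idh2 (NCBI Gene 269951, chromosome 7, 80094845 to 80118608) encodes the mitochondrial isocitrate dehydrogenase that reduces NADP rather than NAD, and thereby supplies NADPH for defence against peroxides. In WT libraries Idh2 read 1163, 1307 and 1415 FPKM at ZT2, 1327, 1215 and 1526 at ZT6, 1558, 1498 and 1443 at ZT10, 1439, 1390 and 1409 at ZT14, 1298, 1393 and 1430 at ZT18, and 1282, 1359 and 1214 at ZT22. In KO-labelled libraries it read 954, 839 and 719 FPKM at ZT2, 935, 978 and 947 at ZT6, 907, 790 and 1028 at ZT10, 919, 849 and 949 at ZT14, and 786, 878 and 818 at ZT18. The highest KO-labelled library thus lay below the lowest WT library, and its log2 differences had the largest SE of the 9 enzymes, 0.09 at each time. Its mean log2 difference was -0.65 ± 0.04 (SE, n = 15 per genotype, limma adjusted p = 4.6e-14), ranging from -0.50 at ZT6 to -0.73 at ZT10 and ZT18. Each of the 5 times passed the test, with adjusted p between 2.6e-07 and 7.2e-05. Counted from the lowest log2 difference, it ranked 181 among the 11790 genes tested.

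The NAD-dependent isocitrate dehydrogenase, the form that feeds the respiratory chain and is activated by ADP and calcium, is built from a catalytic alpha subunit and the beta and gamma subunits. Its 3 genes parted: Idh3b fell at every time, whereas Idh3a and Idh3g did not pass the test in the mean effect. Idh3b (NCBI Gene 170718, chromosome 2, 130279309 to 130284451) read 675, 707 and 666 FPKM at ZT2 in WT, 688, 683 and 696 at ZT6, 657, 679 and 675 at ZT10, 703, 680 and 677 at ZT14, 686, 692 and 701 at ZT18, and 674, 657 and 681 at ZT22. The KO-labelled values were 580, 580 and 590 FPKM at ZT2, 585, 552 and 569 at ZT6, 575, 594 and 603 at ZT10, 580, 568 and 568 at ZT14, and 555, 574 and 570 at ZT18. All KO-labelled values lay below all WT values, with a gap of more than 50 FPKM. The mean log2 difference of Idh3b was -0.25 ± 0.01 (SE, n = 15 per genotype, limma adjusted p = 8.4e-16), with values from -0.18 at ZT10 to -0.29 at ZT18 and adjusted p of at most 1.5e-05 at each time. Its annotated span overlaps that of Nop56, on the other strand, by 5 bases.

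The catalytic subunit gene Idh3a (NCBI Gene 67834, chromosome 9, 54586511 to 54604662) had a lowest, median and highest level of 315, 340 and 369 FPKM in WT and 325, 347 and 376 FPKM in KO-labelled libraries. The ranges overlapped almost entirely, and the mean log2 difference was 0.03 ± 0.02 (SE, n = 15 per genotype, limma adjusted p = 0.13). At ZT6 the log2 difference was -0.07 (limma adjusted p = 0.24). By edgeR on rebuilt counts it was -0.12 and passed as lower (edgeR adjusted p = 0.047). At ZT10 alone Idh3a passed the limma test, at 345, 315 and 323 FPKM in WT and 348, 374 and 347 FPKM in KO-labelled libraries. That log2 difference was 0.12 ± 0.04 SE with a limma adjusted p of 0.039, and it no longer passed without KO-labelled replicate 2, WT replicate 2 or WT replicate 3 at ZT10 (adjusted p up to 0.21), with no filter, or after quantile normalization. The regulatory subunit gene Idh3g (NCBI Gene 15929, chromosome X, 73778963 to 73786897) had a lowest, median and highest level of 448, 474 and 501 FPKM in WT and 448, 481 and 497 FPKM in KO-labelled libraries. Its log2 difference was 0.01 ± 0.02 (SE, n = 15 per genotype, limma adjusted p = 0.47), and it passed the test at no time with values scaled as deposited. At ZT2 its log2 difference was -0.05 (adjusted p = 0.36), and after removal of length and GC trends it was -0.14 and passed (adjusted p = 0.0039).

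Because a ratio within a library is unchanged by a scaling factor common to its genes, the subunits were also set against each other. Quantile normalization and removal of length and GC trends can change such ratios, which were computed on the deposited values only. Idh3b over Idh3g was 1.35 to 1.55 in WT (mean 1.44 ± 0.06 SD, n = 18) and 1.15 to 1.29 in KO-labelled libraries (1.21 ± 0.04, n = 15). Idh3b over Idh3a was 1.85 to 2.18 in WT and 1.55 to 1.75 in KO-labelled libraries. Idh2 over Idh3a, the NADP-dependent against the NAD-dependent enzyme, was 3.20 to 4.76 in WT and 1.91 to 2.97 in KO-labelled libraries. For none of these 3 ratios did the genotypes overlap, and they are given as descriptions without a test. Idh2 over Idh1, its cytosolic counterpart, did overlap, at 36.5 to 60.5 in WT and 33.5 to 59.7 in KO-labelled libraries.

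**Figure D2:**
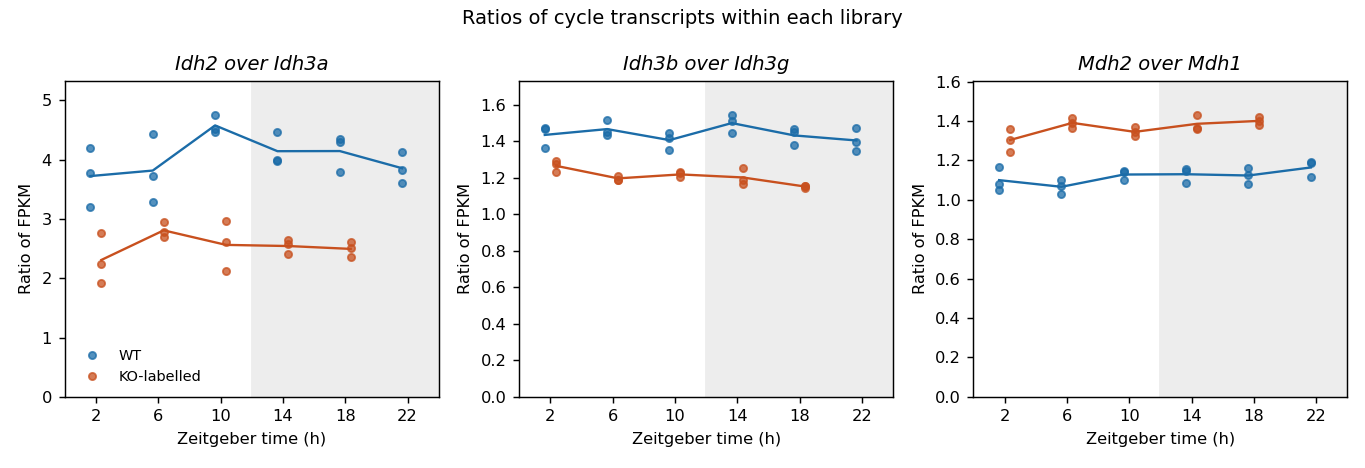
Ratios of FPKM within each library (points, 3 per group) against zeitgeber time, with lines through the group means; blue is WT, orange is KO-labelled, and grey marks the dark phase. Idh2 over Idh3a and Idh3b over Idh3g are lower and Mdh2 over Mdh1 is higher in every KO-labelled library than in any WT library.

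Ogdh (NCBI Gene 18293, chromosome 11, 6291597 to 6359094) encodes the first component of the oxoglutarate dehydrogenase complex, which turns oxoglutarate into succinyl-CoA. Its lowest, median and highest levels were 835, 886 and 933 FPKM in WT and 811, 869 and 941 FPKM in KO-labelled libraries. The ranges overlapped, and the mean log2 difference was -0.03 ± 0.02 (SE, n = 15 per genotype, limma adjusted p = 0.089). This call depended on scaling: under median-ratio scaling, quantile normalization, removal of length and GC trends, and edgeR on rebuilt counts Ogdh passed the test as lower, with log2 differences of -0.04 to -0.13. It also passed without KO-labelled replicate 1 at ZT2, KO-labelled replicate 3 at ZT10 or WT replicate 1 at ZT2, with a lowest adjusted p of 0.026. By time its lowest adjusted p with values as deposited was 0.066, at ZT18. It passed as lower at ZT2 under median-ratio scaling, quantile normalization and edgeR, at ZT18 under the latter pair, and at ZT6 and ZT10 under quantile normalization.

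Sucla2 (NCBI Gene 20916, chromosome 14, 73552786 to 73596144) encodes the ADP-specific beta subunit of succinyl-CoA ligase, the form that makes ATP. With values scaled as deposited it was the only enzyme of the 9 called for a 24 h rhythm in WT, and other scalings changed that set. In WT libraries Sucla2 read 367, 371 and 385 FPKM at ZT2, 364, 359 and 363 at ZT6, 390, 365 and 381 at ZT10, 411, 401 and 390 at ZT14, 332, 325 and 328 at ZT18, and 326, 333 and 322 at ZT22. In KO-labelled libraries it read 378, 401 and 355 FPKM at ZT2, 344, 363 and 346 at ZT6, 375, 397 and 388 at ZT10, 351, 371 and 368 at ZT14, and 334, 333 and 329 at ZT18. Both genotypes were low at ZT18, and at ZT14 the 3 KO-labelled libraries lay below the 3 WT libraries. At ZT14 the log2 difference was -0.14 ± 0.04 SE (limma adjusted p = 0.0041), whereas the other 4 times did not pass. The mean log2 difference was -0.03 ± 0.02 (SE, n = 15 per genotype, limma adjusted p = 0.20), and it became a call of lower expression, at -0.05 to -0.06, under the same 4 changes of scaling or test as for Ogdh.

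The mitochondrial malate dehydrogenase, which closes the cycle, and its cytosolic partner, which serves the malate-aspartate shuttle, moved in opposite directions. Mdh2 (NCBI Gene 17448, chromosome 5, 135778649 to 135790386) read 1212, 1293 and 1217 FPKM at ZT2 in WT, 1200, 1230 and 1284 at ZT6, 1233, 1249 and 1256 at ZT10, 1302, 1283 and 1255 at ZT14, 1265, 1312 and 1297 at ZT18, and 1278, 1273 and 1303 at ZT22. KO-labelled libraries gave 1448, 1401 and 1447 FPKM at ZT2, 1483, 1407 and 1438 at ZT6, 1443, 1468 and 1534 at ZT10, 1556, 1453 and 1454 at ZT14, and 1436, 1461 and 1476 at ZT18. The lowest KO-labelled library was above the highest WT library. The mean log2 difference was 0.21 ± 0.01 (SE, n = 15 per genotype, limma adjusted p = 6.2e-13), with values from 0.17 at ZT18 to 0.25 at ZT10 and adjusted p of at most 0.00015 at each time. At ZT2 the call was lost under quantile normalization, where the log2 difference was 0.07 (adjusted p = 0.13).

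Mdh1 (NCBI Gene 17449, chromosome 11, 21556692 to 21571934) read 1152, 1109 and 1124 FPKM at ZT2 in WT, 1167, 1150 and 1166 at ZT6, 1123, 1094 and 1096 at ZT10, 1125, 1116 and 1157 at ZT14, 1168, 1129 and 1152 at ZT18, and 1145, 1069 and 1098 at ZT22. In KO-labelled libraries it read 1109, 1125 and 1063 FPKM at ZT2, 1048, 1031 and 1033 at ZT6, 1074, 1109 and 1120 at ZT10, 1087, 1067 and 1065 at ZT14, and 1010, 1043 and 1069 at ZT18. The groups were apart at ZT6, ZT14 and ZT18 and overlapped at ZT2 and ZT10. The mean log2 difference was -0.09 ± 0.01 (SE, n = 15 per genotype, limma adjusted p = 2.7e-06), and the contrast passed the test at ZT6 (-0.16), ZT14 (-0.08) and ZT18 (-0.14). The call at ZT14, with a limma adjusted p of 0.044, was lost when any of 8 single libraries was left out, with adjusted p up to 0.17. Those were KO-labelled replicates 2 and 3 at ZT6, all 3 KO-labelled replicates at ZT14, KO-labelled replicate 2 at ZT18, and WT replicates 1 and 3 at ZT14. It was also lost with no filter (adjusted p = 0.063) and under quantile normalization (log2 difference -0.06, adjusted p = 0.26). At ZT2, where the log2 difference was -0.04 (adjusted p = 0.35), Mdh1 passed as lower under quantile normalization (-0.13, adjusted p = 0.020) and after removal of length and GC trends (-0.11, adjusted p = 0.0097). Mdh2 over Mdh1 within a library was 1.03 to 1.19 in WT and 1.25 to 1.43 in KO-labelled libraries. Mdh1 overlaps Wdpcp, at a mean of 1.72 FPKM, by 133 bases on the opposite strand.

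The 3 enzymes Idh2, Idh3b and Mdh2 thus stood apart without overlap. Among all genes tested, 2.65% had every KO-labelled library below every WT library and 3.54% had every one above. Genes whose KO-labelled libraries lay below the WT libraries at each of the 5 times made up 5.55%, and 7.98% lay above at each time. At single times 4 of 9 enzymes were called at ZT2 (29.9% of all genes), 5 at ZT6 (31.8%), 4 at ZT10 (27.8%), 6 at ZT14 (30.9%) and 5 at ZT18 (32.1%). Mdh2 was called higher at all 5 times and Idh2 and Idh3b lower at all 5. The enzymes called lower numbered 3 at ZT2 (11.3% of all genes were called lower), 4 at ZT6 (12.7%), 2 at ZT10 (13.5%), 5 at ZT14 (11.8%) and 4 at ZT18 (14.4%). Those called higher numbered 1 at each time, and 2 at ZT10. The share of all genes called higher was 18.6% at ZT2, 19.1% at ZT6, 14.3% at ZT10, 19.2% at ZT14 and 17.7% at ZT18.

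**Figure D3:**
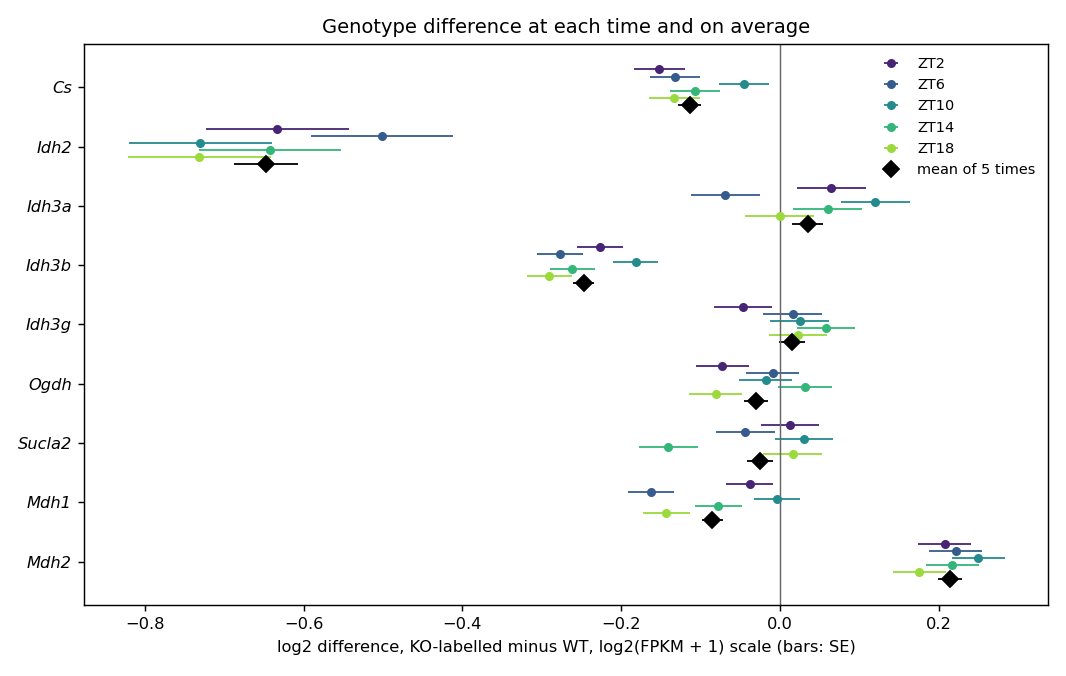
Log2 difference, KO-labelled minus WT, of each enzyme at each of 5 times (coloured points) and on average (black diamonds), with bars of 1 SE; values left of 0 are lower in KO-labelled hearts. Idh2 lies between -0.50 and -0.73 and Idh3b between -0.18 and -0.29, while Mdh2 lies between 0.17 and 0.25.

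The sum of the 9 transcripts was 7014 to 7496 FPKM in WT (mean 7298 ± 145 SD, n = 18) and 6506 to 7240 FPKM in KO-labelled libraries (6788 ± 185, n = 15). Without Idh2 the sum was 5753 to 6029 FPKM in WT and 5692 to 6212 FPKM in KO-labelled libraries. With Idh2 left out the ranges of the genotypes overlapped throughout.

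Whether the genotype difference changed with time was tested as an interaction, which called 0 of 9 enzymes by limma and 0 by edgeR, where 5.37% of all genes were called by limma. At an unadjusted p under 0.05 there were 3: Idh3a, Sucla2 and Mdh1. Mdh1 was nearest to the threshold, with an adjusted p of 0.051, and passed it in the smaller set of genes with a mean of at least 5 FPKM (adjusted p = 0.042). It also passed without KO-labelled replicate 3 at ZT2, KO-labelled replicate 1 at ZT10, WT replicate 1 at ZT2, or WT replicate 1 or 2 at ZT22, with a lowest adjusted p of 0.035.

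Rhythms were fitted as a 24 h cosine per genotype, over 6 times in WT and 5 times in KO-labelled hearts. In WT 1 of 9 enzymes was called (38.6% of all genes): Sucla2, with a log2 amplitude of 0.11 ± 0.03 SE, a fitted peak at ZT 9.58 and a limma adjusted p of 0.0063. Its highest WT group mean was instead at ZT14, at 401 FPKM, beside 379 FPKM at ZT10 and 328 FPKM at ZT18. Once length and GC trends were removed Sucla2 was not called (adjusted p = 0.073), and Cs was the enzyme called instead (adjusted p = 0.012). Beside Sucla2, median-ratio scaling also called Cs (adjusted p = 0.043) and Mdh2 (0.015), and edgeR also called Mdh2 (0.026). Idh2 had a similar WT amplitude, 0.10 ± 0.04 SE, and was not called (limma adjusted p = 0.064). It passed when any of 4 single libraries was left out, with a lowest adjusted p of 0.036. In KO-labelled libraries its amplitude was 0.11 ± 0.05 SE (limma adjusted p = 0.15), and it passed only without replicate 2 at ZT10 (adjusted p = 0.030). In KO-labelled libraries 2 of 9 were called (26.9% of all genes). Cs had a log2 amplitude of 0.06 ± 0.02 SE with a peak at ZT 13.6 (limma adjusted p = 0.015), and Ogdh an amplitude of 0.06 ± 0.02 SE with a peak at ZT 11.6 (limma adjusted p = 0.037). The Ogdh rhythm was lost without any of 7 KO-labelled libraries, namely replicates 2 and 3 at ZT2, replicate 3 at ZT10, and replicates 1 and 3 at ZT14 and at ZT18 (adjusted p up to 0.13). It was also lost with no filter, with median-ratio scaling, after removal of length and GC trends and by edgeR (adjusted p up to 0.17), while quantile normalization kept it and added Mdh2 (adjusted p = 0.023). The test of a difference in rhythm between genotypes called 0 of 9 enzymes by limma and 0 by edgeR, with 0 at an unadjusted p under 0.05 by limma, beside 1.09% of all genes called by limma. A rhythm called in a single genotype is therefore not shown to differ between them.

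The other enzymes and subunits of the cycle were counted as a list of 13 genes, of which 1 rose, 6 fell and 6 did not pass the test, with a median log2 difference of -0.06 beside 0.02 over all genes. The number lower was 8 under median-ratio scaling, removal of length and GC trends, and edgeR, and 10 under quantile normalization. Over all genes the number called lower also rose, from 2763 to between 3300 and 3483. The cytosolic isocitrate dehydrogenase Idh1 was at 32.9 ± 5.96 FPKM in WT and 20.5 ± 2.68 FPKM in KO-labelled libraries (SD, n = 15 each; log2 difference -0.64 ± 0.04 SE, limma adjusted p = 4.3e-15). Sdha, the flavoprotein subunit of succinate dehydrogenase, was at 589 ± 14.1 and 508 ± 19.9 FPKM (log2 difference -0.21). Fh1, fumarase, was at 291 ± 6.45 and 268 ± 9.78 FPKM (-0.12). Suclg1, the alpha subunit that pairs with Sucla2, fell by 0.10 on the log2 scale. The gene that rose was Sdhd, a membrane anchor of succinate dehydrogenase, at 355 ± 13.9 and 378 ± 12.5 FPKM (0.09). Sdha and Sdhd, which encode subunits of the same complex, therefore changed in opposite directions.

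Of the 5 genes of the malate-aspartate shuttle, which carries the electrons of cytosolic NADH into mitochondria and to which Mdh1 and Mdh2 belong, 0 rose, 4 fell and 1 did not pass the test. The aspartate-glutamate carriers Slc25a13 and Slc25a12 fell by 0.38 and by 0.17 on the log2 scale, from 67.9 to 52.0 FPKM and from 119 to 105 FPKM. The aminotransferases Got1 and Got2 fell by 0.16 and by 0.06. Among 10 genes that refill or drain the cycle or handle NADPH, 4 rose, 3 fell and 3 did not pass. Median-ratio scaling and edgeR called 4 higher and 5 lower, quantile normalization 3 and 5, and removal of length and GC trends 3 and 4, so the balance turned with scaling. With a mean of at least 5 FPKM, 7 of the 10 were tested, 1 higher and 3 lower, beside 65.6% of all genes called. Those lower were led by Nnt, the transhydrogenase of the inner mitochondrial membrane, at 184 ± 10.1 and 133 ± 9.33 FPKM (log2 difference -0.47), and Me3, a mitochondrial NADP-dependent malic enzyme, at 33.2 ± 1.39 and 24.4 ± 1.60 FPKM (-0.43). Me3 and Nnt supply NADPH in mitochondria, the product that Idh2 also makes. Those higher were Me2, the NAD-dependent mitochondrial malic enzyme, at 3.88 ± 0.66 and 5.71 ± 0.50 FPKM (0.47), and the cytosolic malic enzyme Me1 (0.16). Also higher were the citrate carrier Slc25a1, at 3.40 ± 1.06 and 3.92 ± 0.81 FPKM (0.18), and the mitochondrial phosphoenolpyruvate carboxykinase Pck2, at 2.87 ± 0.64 and 3.24 ± 0.41 FPKM (0.15).

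Among 9 genes for assembly factors and protein neighbours of the cycle enzymes 5 rose, 3 fell and 1 did not pass, with 4 higher under the same 4 changes of scaling or test. Fahd1, an oxaloacetate decarboxylase, was at 47.6 ± 2.70 and 68.0 ± 4.86 FPKM (log2 difference 0.51), and the succinate dehydrogenase assembly factors Sdhaf4 and Sdhaf1 rose by 0.34 and 0.28 on the log2 scale. Adhfe1, a hydroxyacid-oxoacid transhydrogenase, was at 45.4 ± 2.96 and 27.1 ± 1.82 FPKM (-0.72). Dhtkd1, low at 1.96 ± 0.43 and 1.57 ± 0.20 FPKM with overlapping ranges, fell by 0.20 on the log2 scale. The share called in each of these lists is to be read against the 56.6% of all genes called, or 56.7 to 57.7% under those 4 changes.

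Within the 9 enzymes, group means of Idh2 and Idh3b rose and fell together over the 11 groups (Pearson r = 0.95), and both ran against Mdh2 (r = -0.94 and -0.96). Cs tracked Idh3b with r = 0.81 and Mdh1 tracked it with r = 0.86. These correlations describe group means that share the step between genotypes, and no p is attached to them. Among 7456 other genes with a mean of at least 5 FPKM, the 3 whose group means were most like those of Idh2 were Psme1 (r = 0.988), Ntn1 (0.984) and Ldhb (0.983). Those most like Idh3b were Oat, ornithine aminotransferase (r = 0.997), Immp2l (0.992) and Ces1d, a carboxylesterase (0.992), which was at 70.4 FPKM in WT and 3.88 FPKM in KO-labelled libraries. Those most like Mdh2 were Coq6, of coenzyme Q synthesis (r = 0.992), Adgrl1 (0.991) and the muscle methyltransferase gene Smyd1 (0.988). High values were common for these 3 enzymes, with 318, 316 and 397 genes at r of at least 0.9.

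For the other enzymes close likeness was rarer. Mdh1 was nearest to the ATP synthase subunit gene Atp5pb (r = 0.926), then to Suclg1 (0.919) and Tmem47 (0.896). Cs was nearest to Tmtc1 (r = 0.969), Chd6 (0.946) and Ubr2 (0.933). Sucla2 was nearest to Ccdc47 (r = 0.955), Zfp644 (0.948) and Fundc2 (0.933), and Idh3a to Pcna (0.975), Prorsd1 (0.917) and Vbp1 (0.903). For Idh3g and Ogdh no gene reached an r of 0.9, and the nearest were Tmem115 (0.822) and Srrm1 (0.870).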

How the data were processed

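Libraries were made from heart RNA with an Illumina TruSeq kit, per the labels' protocols. The authors deposited a table per library whose values fit FPKM, a unit inferred from the values, and, in 3 tables filed under KO ZT22, expected counts whose headers and values match KO ZT10, so that KO at ZT22 was not analysed here. Per the submitters' processing notes reads were placed on mm10, with aligner and counter not given in the sources used here. There was 1 further column of values, which was not used. In the WT ZT14 tables the record was followed where header replicate numbers differed.

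Genes reaching 1 FPKM in 3 or more libraries were tested with limma 3.58.1 (R 4.3.3, trend) on log2(FPKM + 1), a scale that understates changes of low genes, using 11 group means or a 24 h cosine and sine per genotype. P-values were adjusted over 11790 genes by Benjamini-Hochberg. Depth came from steps of low values in 113 to 139 genes per library, of which 70.3 to 87.5% lay within 0.15 of a whole read; lengths came from deposited totals. For edgeR 4.0.16, counts rebuilt from FPKM, length and depth were rounded.

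The enzymes, lists and tests were chosen with earlier results of these data known. Named genes were the 9 enzymes, at most the 6 largest called changes per list, and the genes closest in pattern, of which a few items are not reported here.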

Additional observations from a re-analysis of the deposited data

How the results depend on the processing

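Alternatives were a pseudocount of 0.1, no filter, a mean of at least 5 FPKM, median-ratio scaling, quantile normalization, removal of length and GC trends, a replicate block, edgeR on rebuilt counts, and leaving out each of 33 libraries. Cs, Idh2, Idh3b, Mdh1 and Mdh2 kept the direction and call of their mean effect in all of these. The uncalled Idh3a turned to -0.017 under quantile normalization, and Idh3g to -0.012 under median-ratio scaling, -0.016 under quantile normalization, -0.036 after length and GC trends were removed and -0.018 by edgeR. The number of enzymes with a rhythm in KO-labelled libraries fell from 2 to 1 with no filter, with median-ratio scaling, after removal of length and GC trends and by edgeR, where Ogdh was the one lost, and rose to 3 under quantile normalization. In WT it rose from 1 to 3 with median-ratio scaling and to 2 by edgeR. The interaction called 1 enzyme in genes with a mean of at least 5 FPKM. Leaving out single libraries gave 1 to 3 enzymes with a rhythm in KO-labelled libraries, 1 to 2 in WT and 0 to 1 for the interaction. Over all genes, the interaction called 633 and between 411 and 964 without single libraries, and the rhythm difference called 128 and between 80 and 214. Of genes called in the mean effect 58.6% were higher in KO-labelled hearts, beside 50.3% with median-ratio scaling, 49.0% with quantile normalization, 50.9% after removal of length and GC trends and 48.1% by edgeR; the cause was not tested. Of the other genes named, Slc25a1 was no longer called after length and GC trends were removed (log2 difference 0.10, adjusted p = 0.069), nor Pck2 under quantile normalization (0.12, adjusted p = 0.050). Replicate numbers did not pair libraries: deviations of same-numbered libraries had a median correlation of 0.006 over 165 pairs, 11 of 33 libraries correlated best with their own number, and the replicate block called 5 enzymes in the mean effect and 6633 genes. The spread used to test a gene was pooled over the libraries of all 11 groups. A difference at a single time still came only from the 3 libraries per genotype at that time. The part of depth in what could be detected was not tested.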

Other observations

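Ogdhl, the paralogue of Ogdh, was singled out after its values were seen, because it differed between libraries of the same group far more than any of the 9 enzymes. In WT libraries Ogdhl read 31.8, 1.24 and 3.13 FPKM at ZT2, 16.5, 1.79 and 30.8 at ZT6, 33.5, 51.9 and 64.6 at ZT10, 69.8, 42.0 and 2.39 at ZT14, 2.67, 2.82 and 2.46 at ZT18, and 33.4, 37.1 and 33.1 at ZT22. In KO-labelled libraries it read 13.4, 6.15 and 0.85 FPKM at ZT2, 0.76, 27.3 and 12.7 at ZT6, 16.0, 1.35 and 15.95 at ZT10, 11.3, 17.3 and 27.7 at ZT14, and 26.8, 31.1 and 28.7 at ZT18. Low and high libraries occurred in both genotypes, and the 3 libraries at ZT18 were all low in WT and all high in KO-labelled hearts. Ogdh itself stayed between 811 and 941 FPKM in all 33 libraries.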
